A study of Mus musculus with 9 samples.

Results

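The contractile genes of smooth muscle were followed in MC3T3-E1 subclone 4 cells, a preosteoblast line from mouse calvaria that builds a mineralized collagen matrix in osteogenic medium. The set held Acta2, Actg2, Mylk, Synpo2, Smtn, Tagln, Cnn1, Myl9, Tpm1 and Tpm2. These 10 genes were chosen by name, with earlier results of these data known. All 10 were measured, each by 1 probe set, among 19937 genes in all. Their levels were read on whole-transcript arrays (Affymetrix Mouse Gene 1.0 ST), with 3 biological replicates in each of 3 groups. Cells infected with lentivirus carrying a scrambled short hairpin RNA (Scr) were taken while proliferating (day 0) or after 9 days of osteogenic differentiation with ascorbic acid and beta-glycerophosphate (Scr day 9). Cells carrying a hairpin against Runx2, a transcription factor needed for bone formation, were taken after the same 9 days (shRunx2 day 9). All 3 groups were infected, sorted for the viral GFP and grown to near confluency before differentiation. A single Runx2 hairpin was used and no shRunx2 culture was taken at day 0, so a hairpin difference already present at day 0 and one arising during differentiation cannot be told apart. The level of Runx2 is not analysed here, and the knockdown was therefore not checked on its target gene in these arrays.

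In smooth muscle, force comes from myosin sliding along filaments of the smooth muscle actins, encoded by Acta2 and Actg2. Myosin light chain kinase, the product of Mylk, starts contraction by phosphorylating the regulatory light chain encoded by Myl9, while tropomyosins, calponin, transgelin and smoothelin bind the actin filaments. Many of these genes are targets of serum response factor (SRF) and its actin-sensed cofactors of the MRTF family, and several are expressed outside muscle, in fibroblasts and other mesenchymal cells with stress fibres.

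SRF binds the CArG box, and proximal CArG boxes are a familiar feature of smooth muscle promoters, so the bases before the listed start were examined for the members. RefSeq promoter sequences (GRCm38.p6) were matched for 8 of the 10 members, all except Tagln and Actg2. The windows of 4 genes are shown, because Mylk and Synpo2 had the largest changes and because Acta2 and Myl9 held the CArG-like matches. Each is the 250 bases before the start on the gene's own strand, 5′ to 3′. They lie at chr16:34784700-34784949 on the plus strand for Mylk, at chr3:123236150-123236399 on the minus strand for Synpo2, at chr19:34255374-34255623 on the minus strand for Acta2 and at chr2:156775214-156775463 on the plus strand for Myl9. Capitals mark matches to a CArG box, to a CArG box with 1 core base other than A or T, to the RUNX core TGTGGT or to the TEAD-bound MCAT core CATTCC, each on either strand.
Mylk: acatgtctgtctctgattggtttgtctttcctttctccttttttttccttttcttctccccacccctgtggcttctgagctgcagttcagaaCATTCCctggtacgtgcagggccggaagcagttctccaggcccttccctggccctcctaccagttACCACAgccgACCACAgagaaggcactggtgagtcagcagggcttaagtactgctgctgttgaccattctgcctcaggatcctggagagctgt
Synpo2: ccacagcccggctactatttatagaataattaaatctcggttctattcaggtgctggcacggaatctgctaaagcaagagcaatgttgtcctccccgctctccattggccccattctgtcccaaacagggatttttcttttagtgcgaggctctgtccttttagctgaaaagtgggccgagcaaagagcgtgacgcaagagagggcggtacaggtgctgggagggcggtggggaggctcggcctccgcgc
Acta2: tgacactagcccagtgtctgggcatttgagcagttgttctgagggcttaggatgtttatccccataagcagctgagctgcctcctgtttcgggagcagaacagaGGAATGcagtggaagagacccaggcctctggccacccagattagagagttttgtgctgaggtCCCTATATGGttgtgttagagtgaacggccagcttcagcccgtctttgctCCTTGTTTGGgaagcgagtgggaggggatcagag
Myl9: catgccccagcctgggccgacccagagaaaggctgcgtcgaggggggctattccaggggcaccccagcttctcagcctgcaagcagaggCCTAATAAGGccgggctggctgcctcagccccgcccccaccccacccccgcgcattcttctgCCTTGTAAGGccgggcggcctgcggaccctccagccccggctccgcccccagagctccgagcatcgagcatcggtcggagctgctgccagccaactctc

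Myl9 held a full CArG box, CCTAATAAGG, with its first base at -161 from the start, and a second match with 1 deviating core base, CCTTGTAAGG, at -99. Acta2 held matches of the latter kind at -84 (CCCTATATGG) and -34 (CCTTGTTTGG). Mylk held the RUNX core in the opposite orientation at -93 and at -83, and a CATTCC at -158. The Synpo2 window held none of the 4 motifs, nor did those of Cnn1 and Tpm2, while Smtn and Tpm1 each held the MCAT core. The full CArG box was thus in 1 of 8 member promoters and in 1.47% of all 32851 listed promoters, and the 1-off form in 2 of 8 and in 7.24%. The RUNX core was in 1 of 8 and in 14.0%, and the MCAT core in 4 of 8 and in 12.6%. None of the matches overlapped another. These matches describe letters in a short window, and binding was not measured here.

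Differentiation was examined by comparing Scr day 9 with Scr day 0. The members did not move together. Mylk, Smtn, Tagln, Tpm1 and Myl9 rose, Synpo2, Actg2 and Tpm2 fell, and Acta2 and Cnn1 did not pass the test. In this comparison 14.5% of all genes rose and 17.1% fell (limma, Benjamini-Hochberg adjusted p under 0.05 over all 19937 genes). These shares are given for scale, and the choice of members with earlier results known leaves no test of the set against them. Only Mylk and Synpo2 among the 10 also changed by at least 1.5-fold, as did 5.14% of all genes. The median log2 change was 0.093 over the members and -0.016 over all genes. In a bulk sample, fewer cells of a type and less RNA per cell cannot be told apart.

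Mylk, the kinase that switches on contraction, had the largest rise. Its RMA log2 levels were 10.11, 10.15 and 9.98 in the Scr day 0 arrays, 11.38, 11.34 and 11.28 in the Scr day 9 arrays and 11.39, 11.36 and 11.25 in the shRunx2 arrays. Every day 9 array lay more than 1 log2 unit above every day 0 array, and the Scr and shRunx2 arrays of day 9 overlapped. The rise in Scr cells was 1.25 ± 0.0545 on the log2 scale (SE), or 2.38-fold, with a limma adjusted p of 1.2e-08. Its substrate Myl9, the regulatory light chain, rose by only 1.12-fold, by 0.17 ± 0.0369 (adjusted p = 0.00424), from 13.22 to 13.28 in the day 0 arrays to 13.40 to 13.45 in the Scr day 9 arrays.

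Synpo2, which encodes an actin-bundling protein of smooth and striated muscle, moved the other way. It gave 9.70, 9.59 and 9.54 in the Scr day 0 arrays, 8.38, 8.54 and 8.64 in the Scr day 9 arrays and 8.87, 8.92 and 8.87 in the shRunx2 arrays. The 3 groups did not overlap, with the shRunx2 arrays lying between the others. Between day 0 and day 9 in Scr cells its level fell by 1.09 on the log2 scale (SE 0.0628, 2.13-fold, adjusted p = 1.17e-07).

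The smooth muscle actins, which form the thin filament, differed from each other. Actg2, the enteric isoform, gave 12.03, 12.04 and 12.05 at day 0, 11.55, 11.51 and 11.58 in Scr cells at day 9 and 11.59, 11.67 and 11.63 in shRunx2 cells. Both day 9 groups lay below all day 0 arrays. Its fall in Scr cells was 1.41-fold, a log2 change of -0.49 ± 0.0363 (adjusted p = 9.17e-07). Acta2, the vascular isoform and a common marker of contractile fibroblasts, stayed within narrow limits, at 13.80, 13.78 and 13.84 in the day 0 arrays, 13.77, 13.77 and 13.70 in the Scr day 9 arrays and 13.77 in all 3 shRunx2 arrays. Its change with differentiation was -0.06 ± 0.0364, with a 95% interval of -0.14 to 0.02 (adjusted p = 0.243), although the day 0 arrays all lay above the day 9 arrays. A further quantile normalization of the 9 arrays, called requantiling here, made this a call (-0.14, adjusted p = 0.00523).

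The same Acta2 value stood in 5 of the 9 arrays to the digits deposited, so the spread of 0 among the shRunx2 arrays does not measure replicate error. Such ties were not rare in the table. Equal values in all 3 shRunx2 arrays were found for 383 of the 19937 genes, in all 3 Scr day 0 arrays for 308 and in all 3 Scr day 9 arrays for 291. The actins are also close in coding sequence, and how far probes for 1 actin also read the others was not tested.

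The filament-binding members changed less. Smtn, encoding smoothelin, gave 11.14, 11.10 and 11.11 at day 0 and 11.44, 11.43 and 11.36 at day 9 in Scr cells, a rise of 0.29 ± 0.0374 (1.22-fold, adjusted p = 8.6e-05). Tagln, encoding transgelin (SM22), gave 11.22, 11.18 and 11.19 at day 0 and 11.52, 11.42 and 11.45 at day 9, a rise of 0.26 ± 0.044 (1.2-fold, adjusted p = 0.000616). For both genes the groups were apart. The tropomyosins, which lie along the actin filament, diverged from each other. Tpm1 rose by 0.20 ± 0.0334 (1.15-fold, adjusted p = 0.000627) and Tpm2 fell by 0.21 on the log2 scale (SE 0.0495, 1.16-fold, adjusted p = 0.00628). Cnn1, encoding the smooth muscle calponin that inhibits myosin ATPase, was at 8.42 ± 0.04 on day 0 and 8.44 ± 0.0488 on day 9 (SD, n = 3 each), a difference of 0.02 ± 0.0567 that did not pass (adjusted p = 0.86).

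**Figure D1:**
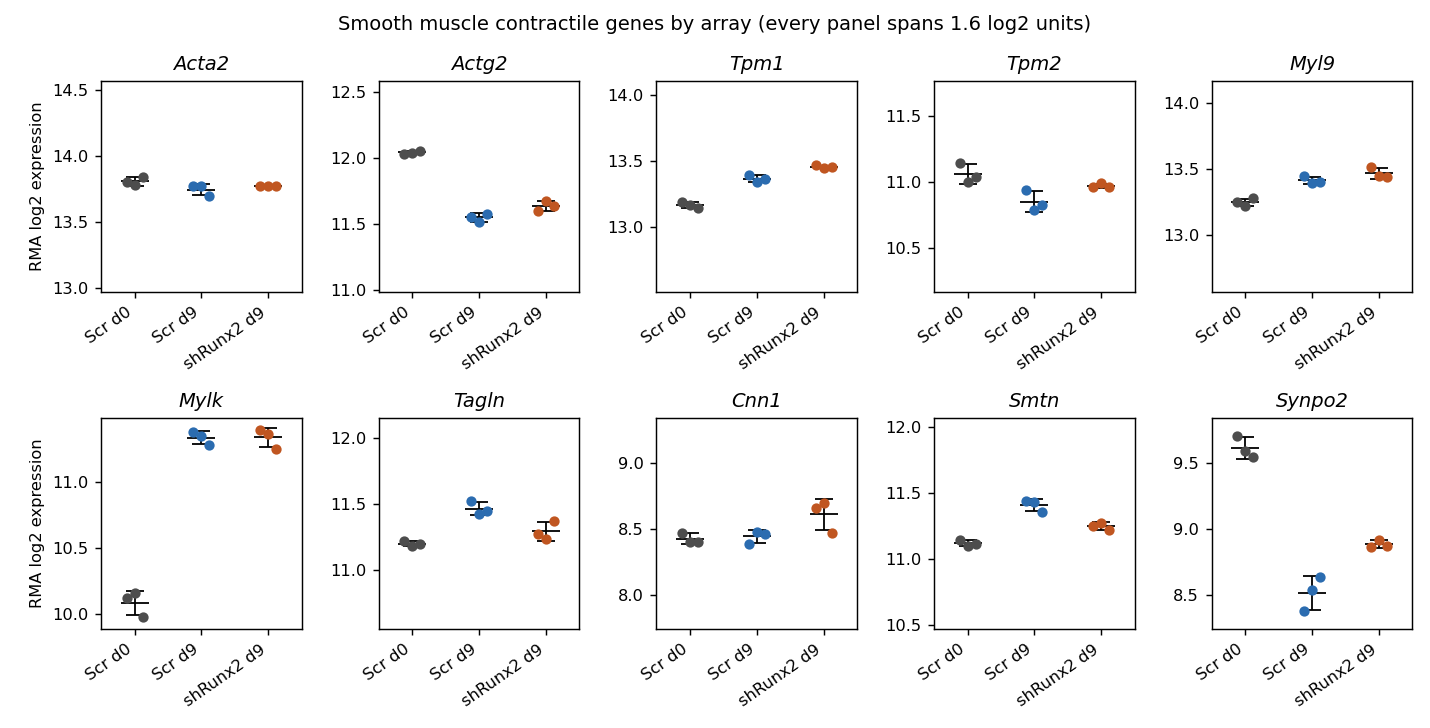
RMA log2 expression of the 10 members (vertical axis, every panel spanning the same number of log2 units) in each of the 9 arrays, by group (horizontal axis), with bars at the group means. Mylk steps up and Synpo2 steps down between day 0 and day 9, Actg2 falls by less, and Acta2 stays between 13.70 and 13.84.

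The members were set beside their closest relatives, most of which serve non-muscle or striated actin filaments. These relatives were chosen for comparison with values of these data known, and their levels are not compared with those of the members, since different probe sets differ in response. Within the tropomyosins, Tpm3 and Tpm4 fell between day 0 and day 9 in Scr cells, by 0.36 (SE 0.0442, adjusted p = 5.8e-05) and 0.34 on the log2 scale (SE 0.0405, adjusted p = 4.41e-05). Of the members, Tpm2 also fell and Tpm1 rose, as given above. Within the transgelins, Tagln2 fell by 0.54 on the log2 scale (SE 0.0411, adjusted p = 1.27e-06), Tagln rose and Tagln3 did not pass (0.02, adjusted p = 0.822). The calponins went differently, since Cnn3 rose by 0.21 ± 0.0332 (adjusted p = 0.000481), and neither Cnn2 (0.05, adjusted p = 0.537) nor Cnn1 passed. Of the regulatory light chains other than Myl9, Myl12b rose by 0.27 ± 0.0412 (adjusted p = 0.000364) and Myl12a fell by 0.31 on the log2 scale (SE 0.0379, adjusted p = 5.81e-05). The essential light chain Myl6 also fell by 0.31 on the log2 scale (SE 0.0496, adjusted p = 0.000443).

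The families of the members with the largest changes were not uniform either. Changes of Mylk2, Mylk3 and Mylk4, kinases known mainly from striated muscle, were -0.08, -0.02 and 0.03 on the log2 scale (adjusted p = 0.203, 0.8 and 0.737), beside the rise of Mylk. Synpo, encoding synaptopodin, rose by 0.68 ± 0.0471 (1.6-fold, adjusted p = 5.46e-07) whereas Synpo2 fell, and Synpo2l changed by -0.02 (adjusted p = 0.825). Of the other actins, Actb was at 14.14 and 14.16 in the means of day 0 and day 9 (adjusted p = 0.782), and the striated actins Acta1 and Actc1 changed by -0.10 and -0.01 (adjusted p = 0.332 and 0.91). Among the 25 measured non-muscle actomyosin genes and relatives as a whole, 3 rose and 12 fell, beside 14.5% and 17.1% of all genes. The median log2 change was -0.108 over this list and -0.016 over all genes. Zyx, encoding the focal adhesion protein zyxin, had the largest fall of the list, by 0.83 on the log2 scale (SE 0.0444, 1.77-fold, adjusted p = 6.69e-08). The counts of this list were the same after requantiling and after centring each array on its median.

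**Figure D2:**
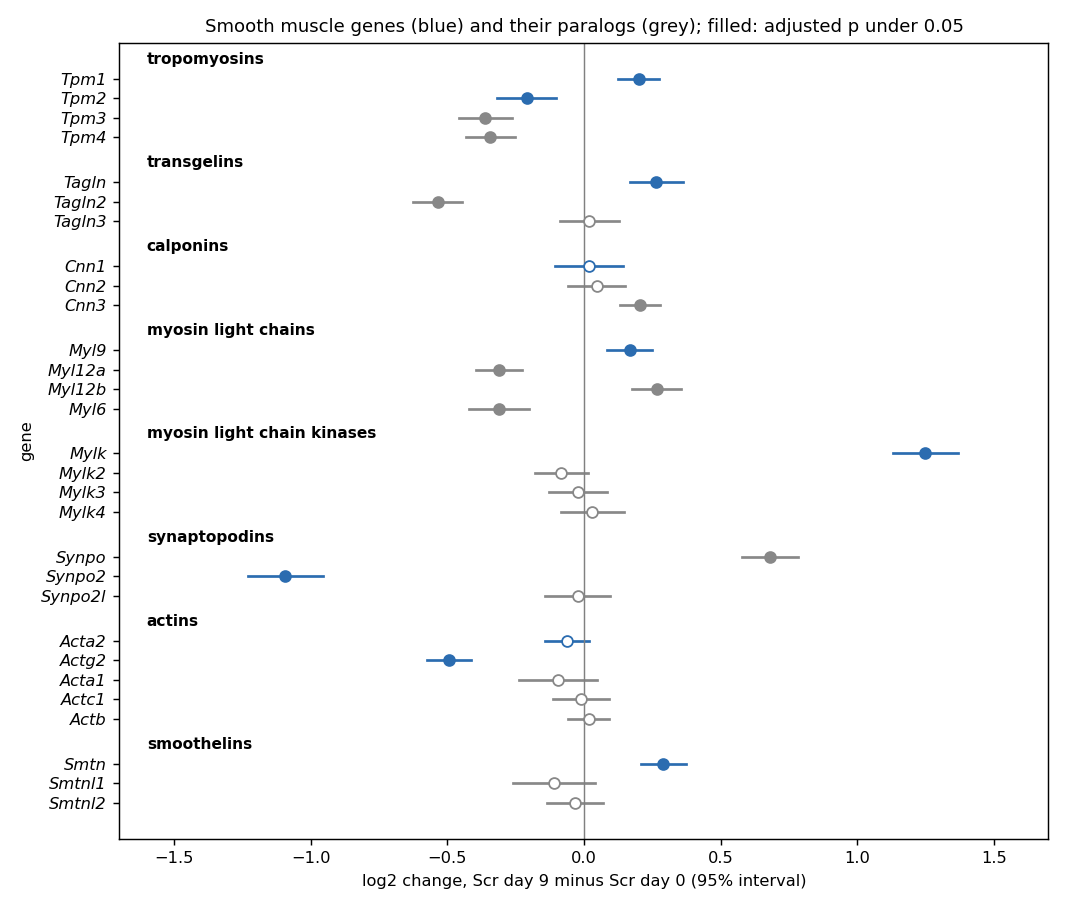
Log2 change between Scr day 0 and Scr day 9 (horizontal axis, with the 95% interval as a line) for the members (blue) and their relatives (grey), grouped by protein family on the vertical axis; filled points passed an adjusted p of 0.05. Mylk and Synpo2 lie farthest from 0. Tpm3, Tpm4 and Tagln2 lie on the side opposite to Tpm1 and Tagln, as does the member Tpm2.

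The effect of the Runx2 hairpin was examined by comparing shRunx2 with Scr cells, both at day 9. Synpo2 was higher in shRunx2 cells, Smtn and Tagln were lower, and the other 7 members did not pass the test. Across all genes 2.73% were higher and 4.66% lower at the same threshold. No member changed by 1.5-fold or more, as 0.592% of all genes did, and the median log2 difference was 0.07 over the members and -0.004 over all genes. Of 8 measured osteoblast markers, 4 were lower in shRunx2 cells and 4 did not pass. Ibsp and Alpl, encoding a mineral-binding matrix protein and the bone alkaline phosphatase, were lower in shRunx2 cells, with log2 differences of -1.125 and -0.75 (adjusted p = 1.05e-07 and 9.26e-05). The SD of Alpl among the shRunx2 arrays was 0, as for Acta2. Col1a1, Col1a2, Sparc and Dlx5 differed by -0.027, -0.012, -0.001 and -0.013 without passing (adjusted p = 0.777, 0.906, 0.995 and 0.901).

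Synpo2 was the member with the largest difference. Its shRunx2 arrays, listed above, all lay above the Scr day 9 arrays and below the day 0 arrays, and the difference from Scr day 9 was 0.37 ± 0.0628 (1.29-fold, adjusted p = 0.0043). This call was kept under all 18 alternative settings, with adjusted p between 0.000596 and 0.0282.

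Smtn gave 11.25, 11.27 and 11.22 in the shRunx2 arrays and Tagln 11.27, 11.23 and 11.37, against the Scr day 9 values given above. All 3 shRunx2 arrays lay below all 3 Scr day 9 arrays for both genes. The difference of Smtn was -0.16 ± 0.0374 (1.12-fold, adjusted p = 0.023) and that of Tagln -0.17 ± 0.044 (1.13-fold, adjusted p = 0.04). Both calls were near the threshold. That of Smtn was lost on leaving out Scr day 9 replicate 1 or 2 (limma adjusted p = 0.0702 and 0.104) or shRunx2 replicate 1 or 3 (adjusted p = 0.0693 and 0.082). That of Tagln was lost on leaving out any 1 of the 9 arrays except shRunx2 replicate 3, with adjusted p between 0.0509 and 0.136, and was kept without shRunx2 replicate 3 (adjusted p = 0.0223). After requantiling neither passed (adjusted p = 0.0574 and 0.0675).

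For the members that did not pass, the intervals show what sizes the arrays leave possible. The difference of Mylk was 0.00, with a 95% interval of -0.12 to 0.12 (adjusted p = 0.993), which is narrow beside its rise of 1.25 with differentiation. That of Acta2 was 0.02 (-0.06 to 0.10, adjusted p = 0.778) and that of Myl9 0.05 (-0.03 to 0.13, adjusted p = 0.502). The remaining 4 were all above 0 in shRunx2 cells without passing over all genes. Actg2 differed by 0.09 (0.01 to 0.17, adjusted p = 0.212), Tpm1 by 0.09 (0.01 to 0.16, adjusted p = 0.16) and Tpm2 by 0.12 (0.01 to 0.23, adjusted p = 0.206). Cnn1 differed by 0.17 (0.04 to 0.29, adjusted p = 0.121), with shRunx2 values of 8.66, 8.69 and 8.47 against 8.39, 8.48 and 8.46 in Scr day 9. Its shRunx2 replicate 3 lay within the Scr range, and without that array the difference was 0.23 and passed (adjusted p = 0.0158). These intervals are for 1 gene each and are not widened for the number of genes.

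**Figure D3:**
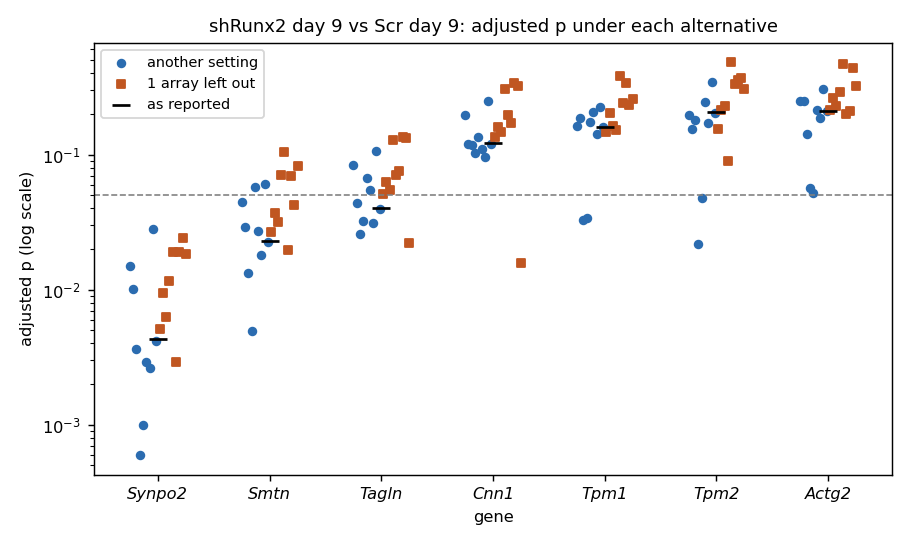
Adjusted p of the difference between shRunx2 and Scr cells at day 9 (vertical axis, log scale) for 7 members (horizontal axis), as reported (dash) and under each alternative, with squares where 1 array was left out and a dashed line at 0.05. All points of Synpo2 lie below the line, between 0.000596 and 0.0282, while those of Smtn and Tagln lie on both sides of it.

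Set against day 0, shRunx2 cells at day 9 had higher Mylk, Tpm1, Myl9, Cnn1 and Smtn and lower Synpo2 and Actg2, while Tagln, Tpm2 and Acta2 did not pass. The background was 13.8% of all genes higher and 20.4% lower, and Mylk and Synpo2 were again the 2 members past 1.5-fold, as were 5.7% of all genes. The median log2 difference was 0.111 over the members and -0.009 over all genes. This comparison shares its day 0 arrays with the differentiation comparison and its shRunx2 arrays with the hairpin comparison, so the values are given side by side and no agreement is read from them.

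Mylk was 1.25 ± 0.0545 above day 0 in shRunx2 cells (adjusted p = 9.98e-09), beside 1.25 in Scr cells. Synpo2 differed from day 0 by -0.73 ± 0.0628 (1.65-fold, adjusted p = 3.19e-06), beside -1.09, and Actg2 by -0.41 ± 0.0363 (1.33-fold, adjusted p = 4.09e-06), beside -0.49. Tpm1 was 0.29 ± 0.0334 and Myl9 0.22 ± 0.0369 above day 0 (adjusted p = 3.27e-05 and 0.000581), beside 0.20 and 0.17. Tagln was 0.09 above day 0 (95% interval -0.003 to 0.19, adjusted p = 0.137), beside 0.26, and Tpm2 differed by -0.09 (-0.20 to 0.02, adjusted p = 0.207), beside -0.21. In order of level, Synpo2 was thus highest at day 0 and lowest in Scr cells at day 9, with shRunx2 cells between them and all neighbours apart by a passed test. For Mylk both day 9 groups were above day 0 and did not differ beyond their spread from each other.

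The Cnn1 and Smtn calls against day 0 were the least secure. Cnn1 was higher by 0.18 ± 0.0567 (1.14-fold, adjusted p = 0.0253), and it no longer passed once Scr day 0 replicate 2 or 3 (limma adjusted p = 0.0809 and 0.0752) or shRunx2 replicate 1 or 2 (adjusted p = 0.0988 and 0.106) was omitted. Smtn was higher by 0.13 ± 0.0374 (1.09-fold, adjusted p = 0.0193), and omitting Scr day 0 replicate 2 (adjusted p = 0.0662) or shRunx2 replicate 1 or 2 (adjusted p = 0.0524 and 0.0658) ended the call. Centring each array on its median also ended both (adjusted p = 0.0905 for Smtn and 0.052 for Cnn1), and requantiling ended that of Cnn1 (adjusted p = 0.052). Counting every alternative, the Cnn1 call was lost under 8 of 18 and the Smtn call under 4.

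**Figure D4:**
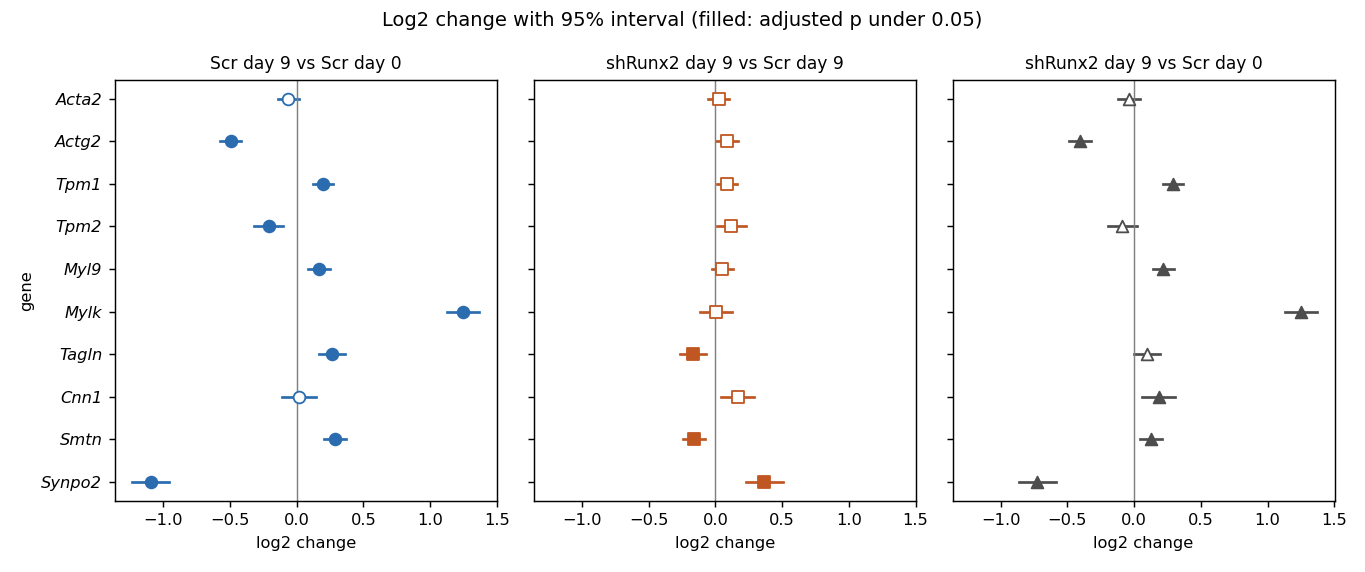
Log2 change with its 95% interval (horizontal axes) for the 10 members (vertical axis) in the 3 comparisons, with filled points where the adjusted p was under 0.05. Mylk and Synpo2 stand apart in both comparisons with day 0, and in the hairpin comparison every member lies between -0.17 and 0.37.

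Other genes of the smooth muscle programme were read from a list of 22, of which 21 were measured. Between day 0 and day 9 in Scr cells 4 rose and 5 fell, where 14.5% of all genes rose and 17.1% fell. The median log2 change was -0.01 over this list and -0.016 over all genes. Pgm5, encoding the adherens junction protein aciculin, rose from 7.62 to 10.97 (10.2-fold, adjusted p = 2.49e-09), and Itga8, an integrin subunit of contractile mesenchyme, from 7.89 to 9.96 (4.21-fold, adjusted p = 2.08e-10). The intermediate filament gene Synm rose by 0.60 ± 0.0472 (adjusted p = 1.72e-06), and Pdlim7, encoding a PDZ-LIM protein of the cytoskeleton, fell by 0.68 on the log2 scale (SE 0.0431, adjusted p = 2.51e-07). The smooth muscle myosin heavy chain Myh11, the most specific marker of the lineage, was at 8.31, 8.25 and 8.37 in the means of day 0, Scr day 9 and shRunx2, and passed in no comparison (adjusted p = 0.44, 0.256 and 0.526). Cald1, encoding caldesmon, had means of 12.46, 12.45 and 12.50 (adjusted p = 0.873, 0.554 and 0.538).

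In the hairpin comparison 1 of these 21 genes was higher and 1 lower, where 2.73% of all genes were higher and 4.66% lower. The median log2 difference was 0.036 over the list and -0.004 over all genes. The called genes are named here after their values were seen. Nexn, encoding the actin-binding nexilin, was higher by 0.26 ± 0.0371 (adjusted p = 0.00131). Hspb6, encoding a small heat shock protein abundant in muscle, was lower, at -0.44 ± 0.0435 (adjusted p = 9.26e-05), having also fallen by 0.42 on the log2 scale between day 0 and day 9 in Scr cells (SE 0.0435, adjusted p = 1.64e-05). Requantiling added Itga8 to the higher genes (0.21, adjusted p = 0.00915). Against day 0, 4 genes were higher and 4 lower in shRunx2 cells (6 and 4 after requantiling, 4 and 5 after centring). Of all genes 13.8% were higher and 20.4% lower in that comparison. The log2 differences of the list ran from -0.855 for Hspb6 (1.81-fold, adjusted p = 3.69e-08) to 3.51 for Pgm5 (11.4-fold, adjusted p = 1.42e-09).

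The regulators of these genes were read from a list of 24 genes encoding SRF, MRTF and TEAD factors, their partners and signalling proteins that act on them, of which 23 were measured. With differentiation 3 rose and 8 fell, with a median log2 change of -0.044 (4 and 9 after requantiling, 3 and 10 after centring). Srf itself fell by 0.38 on the log2 scale (SE 0.0627, 1.3-fold, adjusted p = 0.000629), and the genes of its cofactors Mrtfa and Elk3 fell by 0.54 and 0.60 (adjusted p = 2.75e-06 and 8.59e-07). Mrtfa, named after its values were seen, carries SRF's response to actin, and Elk3 is a ternary complex factor that shares SRF sites. Tead1, whose product binds the MCAT core, fell by 0.65 on the log2 scale (SE 0.0429, 1.57-fold, adjusted p = 3.83e-07). Others, named after their values were seen, went differently. The 3 that rose were Vgll3, Wwtr1 and Elk1, by 0.30, 0.23 and 0.19 (adjusted p = 9.28e-05, 0.00152 and 0.00253). The other MRTF gene, Mrtfb (-0.03, adjusted p = 0.583), and Yap1 (-0.01, adjusted p = 0.851) did not pass. Myocd, encoding myocardin, the SRF cofactor restricted to smooth and cardiac muscle, was at 7.54, 7.54 and 7.55 in the 3 group means and passed in no comparison (adjusted p = 0.962, 0.92 and 0.923).

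In the hairpin comparison none of these 23 genes was higher and 3 were lower, beside 2.73% and 4.66% of all genes. After requantiling 1 was higher and none lower. Srf differed by 0.11 (adjusted p = 0.371), Mrtfa by 0.13 (adjusted p = 0.137) and Tead1 by 0.01 (adjusted p = 0.914). The 3 lower genes, named after their values were seen, were Limk1 (-0.14, adjusted p = 0.0307), Elk1 (-0.14, adjusted p = 0.0492) and Vgll3 (-0.15, adjusted p = 0.0369). Among the 25 non-muscle actomyosin genes 1 was higher, the non-muscle myosin heavy chain Myh10 (0.16 ± 0.0396, adjusted p = 0.0334), and none was lower. Neither striated actin passed in any comparison. Against day 0, shRunx2 cells had 3 regulators higher and 11 lower (5 and 10 after requantiling, 2 and 13 after centring). Of the 25 non-muscle actomyosin genes, 3 were higher and 12 lower. The shares of all genes were 13.8% higher and 20.4% lower.

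Markers of other cell types were read beside these results, and their part in them was not tested. Over all genes 14.5% rose and 17.1% fell with differentiation, and 2.73% were higher and 4.66% lower in shRunx2 cells. With so few markers per list, counts near these shares say nothing particular about a cell type. The deposited values carry no detection calls, so a low level cannot be told from background. All 9 arrays correlated at 0.9981 or more within groups, and array medians lay between 8.416 and 8.51. Of 8 measured osteoblast markers, 4 rose with differentiation and the same number were lower in shRunx2 cells, with list means of 10.60 to 10.67 at day 0, 11.70 to 11.74 in Scr cells at day 9 and 11.21 to 11.23 in shRunx2 cells. The 8 smooth muscle markers outside the members, among them Myh11, Myocd, Des and Kcnmb1, had list means of 8.72 to 8.76, 9.05 to 9.06 and 9.10 to 9.13, with Itga8 and Synm rising and Lmod1 falling over differentiation and none passing between the day 9 groups without the rescaling that added Itga8. Group means were between 7.949 and 7.998 for Des and between 7.086 and 7.12 for Kcnmb1. Of 8 pericyte markers, 1 rose and 2 fell with differentiation and 1 was higher in shRunx2 cells. Skeletal muscle markers fell in 2 of 10 cases, and cardiac markers changed in 0 of 7, between day 0 and day 9, and none of either passed in the hairpin comparison. After requantiling or centring the cardiac marker Tnnt2 also fell between day 0 and day 9 (adjusted p = 0.0193 and 0.0283), and after centring so did the osteoblast marker Dlx5 and the endothelial marker Tek (adjusted p = 0.0245 and 0.046). Of 6 adipocyte, 6 chondrocyte, 6 endothelial and 6 macrophage markers, 1, 0, 0 and 1 rose with differentiation, 0, 1, 0 and 1 were higher in shRunx2 cells, and none was lower in either apart from Tek after centring.

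The members' mean profile was nearly flat, as rises and falls offset each other. The mean log2 level over the 10 genes was 11.36 to 11.41 in the day 0 arrays, 11.40 to 11.42 in the Scr day 9 arrays and 11.44 to 11.48 in the shRunx2 arrays. The median over the same genes was 11.14 to 11.18, 11.40 to 11.48 and 11.31 to 11.33, so it was highest in Scr day 9. Among 442 other genes whose group means spanned at least 1 log2 unit, the 5 most like the members' mean over the 9 arrays were Ifit3b, Mx1, Tnn, Ifih1 and BC023105, with Pearson r of 0.952, 0.938, 0.936, 0.936 and 0.933. Ifit3b, Mx1 and Ifih1 are interferon-induced genes, and Tnn encodes the matrix protein tenascin-W. Ifit3b had group means of 5.67, 6.93 and 9.18 at day 0, Scr day 9 and shRunx2 day 9, and Tnn of 9.52, 10.12 and 10.93. These correlations are a description over 9 arrays that fall into 3 groups and share array-wide shifts. They hold for the mean only, since the members' median orders the groups differently.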

How the data were processed

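RNA of 9 samples was read on Affymetrix Mouse Gene 1.0 ST arrays, 3 each for Scr day 0, Scr day 9 and shRunx2 day 9, as given by the sample titles. The deposited log2 values of 34760 probe sets were made by the authors with RMA, which subtracts background, equalizes quantiles and summarizes probes by median polish. The study's methods also mention a filter that they do not describe. The submitters' processing notes name RMA and limma. No array file with detection calls was used here, and the number of arrays limits the precision.

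Probe sets with 1 gene symbol in the platform annotation (21640) were kept, 1321 with several symbols and 11799 unnamed here were left out, and the brightest probe set stood for each of 954 genes with several, which left 19937 genes. Differences were fitted with limma 3.58.1 in R 4.3.3 (lmFit, eBayes) as group means over all 9 arrays without covariates, and adjusted by Benjamini-Hochberg over all genes. A gene rose or fell at an adjusted p under 0.05. Errors are the model's SE unless SD is stated. The fit was tested on simulated data.

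The members and gene lists were chosen with earlier results of these data known. Named genes were all members, up to 4 genes per list with the smallest adjusted p past 1.5-fold, a few reference genes (the striated actins, Actb, Myh11, Cald1, Srf, Myocd), the 5 genes most alike in profile and the markers whose levels are described. Others are said to be named after their values were seen. The alternatives were the 6 arrays compared alone, a replicate block, an intensity trend, array weights, requantiling, median centring, a filter at the 25th percentile, every probe set, the mean of a gene's probe sets, and leaving out each array. Promoter windows came from RefSeq (GRCm38.p6). Actg1, among others of the lists, is not analysed here.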

Additional observations from a re-analysis of the deposited data

How the results depend on the processing

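Of 30 member changes (10 genes in 3 comparisons), 18 kept their direction and their side of the threshold under all 18 alternatives. Between Scr day 0 and day 9, 5 members rose under all of them, and 3 to 4 fell. Between shRunx2 and Scr cells at day 9, the 2 lower members became 1 with only the 6 arrays compared, 1 after median centring, 0 after requantiling and 0 with every probe set in the test, and 0 to 1 on leaving out 1 array. The 1 higher member became 2 with an intensity trend (adding Tpm1, adjusted p = 0.0326), 3 with array weights (adding Tpm1 and Tpm2, adjusted p = 0.0338 and 0.0219) and 2 after requantiling (adding Tpm2, adjusted p = 0.0477), and 1 to 2 on leaving out 1 array. Between shRunx2 day 9 and Scr day 0, the 5 higher members became 3 after median centring and 3 to 5 on leaving out 1 array. Over all 18 alternatives the higher ones numbered 3 to 5 and the lower ones 2 to 3. Requantiling there added Tagln (0.18, adjusted p = 0.00372) to the higher and Acta2 (-0.10, adjusted p = 0.0231) to the lower members, and ended the Cnn1 call (0.15, adjusted p = 0.052). Signs turned only for changes near 0. These were Cnn1 over differentiation, at -0.002 after requantiling and -0.014 after centring, and Mylk between the day 9 groups, at -0.001 with array weights, -0.0 after centring, -0.025 without Scr day 9 replicate 3, -0.026 without shRunx2 replicate 1 and -0.013 without shRunx2 replicate 2, in a range of -0.026 to 0.044 (without shRunx2 replicate 3) on leaving out 1 array. The causes were not tested. No member lay below the dim-probe filter.

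Whether the replicate numbers pair the samples was read from how same-numbered arrays of different groups deviated from their group means. Their r ran from -0.114 to 0.294, and 3 of 9 pairs exceeded 0.1. Between Scr day 0 and Scr day 9 it was 0.294, 0.0823 and 0.285 for equal numbers and -0.293 to 0.11 for different ones. A pairing of those groups is therefore not excluded, and the main fit takes no account of it. With the replicate number as a block, 5 members rose and 3 fell over differentiation, 1 was higher and 2 lower in the hairpin comparison, and 5 were higher and 2 lower in shRunx2 cells against day 0.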
